A study of Homo sapiens with 4 samples.

Results

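DNA methylation in mammalian cells is written by the DNA methyltransferases and removed through the TET and TDG enzymes. *DNMT1*, with *UHRF1*, which recognizes hemimethylated CpG sites behind the replication fork, copies existing methylation to the new strand. *DNMT3A* and *DNMT3B* place methyl groups de novo. *TET1*, *TET2* and *TET3* oxidize 5-methylcytosine, and *TDG*, a thymine DNA glycosylase, cuts out the more oxidized forms so that base excision repair can restore cytosine. Transcripts of *DNMT3A*, *DNMT3B*, the TET genes and *TDG* are known targets of the miR-29 family, which acts by pairing of its seed with 3′ UTRs.

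These 8 genes were looked up by symbol in a table of 16811 genes, and 7 of them had values. *TET1* was not analysed here. The cells were MCF12A, a human mammary epithelial line regarded as non-tumorigenic, although the label on its source reads breast cancer cell line. The edited group (genotype C1orf132 KO, 2 libraries) had lost the p2 promoter of *C1orf132* to CRISPR/Cas9 editing, the host gene of miR-29b2 and miR-29c. In the text, values of a group are given with replicate 1 before replicate 2. The wild-type group (Wild type (WT), 2 libraries) was unedited. Both groups were grown in the same medium with horse serum, EGF, hydrocortisone, cholera toxin and insulin. The edited cells were raised from sorted single cells as colonies, and the sources used here do not state whether the edited libraries came from 1 colony or more. Poly(A)-selected RNA was sequenced as single-end reads of 75 bases. The deleted p2 is a distal promoter, and the nearer promoter that gives the miR-29 precursor was not the one targeted. The comparison asks whether the methylation genes that miR-29 targets were higher in edited cells.

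Judged by their low values, the deposited signals take account of transcript length and of sequencing depth. They summed to between 1444644 and 1655437 per library, and 1 read on a transcript of 1 kb was worth between 0.10 and 0.121, as estimated from the 59 of 777 genes with a single annotated transcript whose values were whole multiples of a step. Read numbers for a gene are therefore estimates, and their error covers counting only. As *C1orf132* was not analysed here, only the labels assign the libraries to groups. Of 12 epithelial markers, 5 (*CDH1*, *EPCAM*, *TP63*, *ESRP1* and *GRHL2*) were lower and 1, *KRT8*, was higher in edited cells (adjusted p of limma under 0.05, by Benjamini-Hochberg). Of the 9590 genes averaging 10 or more, 4.2% were lower and 2.89% higher at this threshold. With each library left out, the log2 difference was -5.75 to -4.81 for *CDH1* and -2.82 to -1.80 for *EPCAM*. The summed value of these 12 markers was between 4055 and 4363 in edited libraries and between 6484 and 14852 in wild-type libraries. Most of this sum was *KRT5*, at 3514 and 3056 in edited and 4590 and 11914 in wild-type libraries. *KRT5* did not pass (adjusted p = 0.146 from limma). No marker was at 0 in the wild-type libraries, while *KRT19* was at 0 in edited replicate 2. Of the 6 mesenchymal and fibroblast markers with values, *VIM* and *CDH2* were higher. *CDH2* averaged below 10 and was called in the fit of all 16811 genes, of which 1.33% were called higher. Its values were 4.52 and 8.87 in edited and 0.429 and 0.0996 in wild-type libraries. With each library left out, *KRT8* and *CDH2* passed in 0 of 4 cases. In the mesenchymal list the summed value was 1079 and 5224 in edited and 1014 and 585 in wild-type libraries. Most of the sum of edited replicate 2 was *FN1*, at 3735. *FN1* was at 171 in edited replicate 1 and at 645 and 314 in wild-type libraries, and did not pass. Only *CD68* and *CD14* of 8 leukocyte markers had values, neither past the threshold, and the 5 endothelial markers were not analysed here. In such bulk RNA, fewer cells of a type and less RNA per cell cannot be told apart, and the part of these markers in the results below was not tested.

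The mature miR-29 strands are shown because their shared seed defines which of the genes can pair with them. They come from RefSeq (table on GRCh38.p14), are written 5′ to 3′, and carry the seed, bases 2 to 8, in capitals. The members differ after the seed, and miR-29c-3p and miR-29b-3p are the products of the *C1orf132* locus on chromosome 1, miR-29b-3p being made also from chromosome 7.
miR-29a-3p: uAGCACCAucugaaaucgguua
miR-29b-3p: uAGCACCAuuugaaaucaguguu
miR-29c-3p: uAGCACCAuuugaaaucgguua

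The seed faces TGGTGCT in a target transcript. This sequence was searched, on the transcript strand only, in the annotated 3′ UTR of the canonical transcript of every gene (GENCODE version 44 on GRCh37). It was found in 14.0% of 19422 UTRs, and 3 or more times in 0.474% of them. Of the 8 genes, 6 held it and 5 held it 3 or more times. These 6 are the genes named above as known miR-29 targets, so their matches are not an independent result. *TET3* had 10 matches in a UTR of 6000 bases, *DNMT3A* 4 in 6405 bases, *TET2* 4 in 3284 bases, *TET1* 3 in 2673 bases, *TDG* 3 in 1784 bases and *DNMT3B* 1 in 1453 bases. The maintenance genes had none, *DNMT1* in 321 bases and *UHRF1* in 1351 bases. Length bears on these numbers, since 39.7% of UTRs between 4/5 and 5/4 of the length of that of *TET3* held the sequence, and 2.81% of them held it 3 or more times. For UTRs near the length of that of *TDG* the shares were 15.8% and 0.291%. The sequence was in 3.82% of UTRs near the length of that of *DNMT1* and in 12.4% of those near that of *UHRF1*. A match is a description of the letters and not a measured site.

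The sites below are the 8-base matches, in which an A follows TGGTGCT, and for *DNMT3A*, which has none of these, its first pair of 7-base matches. They all lie in 3′ UTRs, positions are on GRCh37, and the capitals mark the matched letters.
DNMT3A, chr2:25456280-25456286, minus strand: aacccgacttcataaTGGTGCTtt
DNMT3A, chr2:25455837-25455843, minus strand: acatacaaaacgtacTGGTGCTtt
DNMT3B, chr20:31396911-31396918, plus strand: tttactcttcttacTGGTGCTAtt
TET2, chr4:106198272-106198279, plus strand: gatgttctaagaaaTGGTGCTAag
TET2, chr4:106199388-106199395, plus strand: aattcacatcatgaTGGTGCTAct
TET3, chr2:74332552-74332559, plus strand: tctcacaaaataacTGGTGCTAgc
TET3, chr2:74333111-74333118, plus strand: tagtctaaataaaaTGGTGCTAtg
TET3, chr2:74333775-74333782, plus strand: ggctgctttttagtTGGTGCTAac
TDG, chr12:104381932-104381939, plus strand: taatgagttttccaTGGTGCTAca

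**Figure D1:**
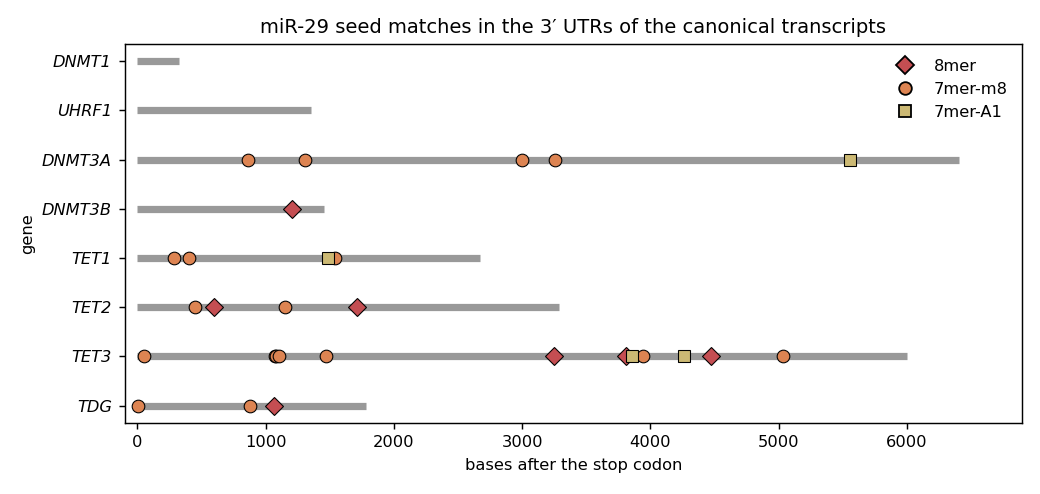
Map of the 3′ UTRs of the 8 genes, drawn to scale in bases after the stop codon, with each match to the miR-29 seed as a symbol (8mer, TGGTGCT followed by A; 7mer-m8, TGGTGCT alone; 7mer-A1, its last 6 letters followed by A). *TET3* holds 10 matches to bases 2 to 8 and the bars of *DNMT1* and *UHRF1* are empty.

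No increase was detected for the 5 measured genes with seed matches. None of them passed an adjusted p of 0.05 (limma, Benjamini-Hochberg) and 0 of 5 had an unadjusted p under 0.05, which 32.3% of the 9590 genes averaging 10 or more and 29.2% of all 16811 genes had. *DNMT3A*, *DNMT3B*, *TET2* and *TET3* lay lower in edited cells, by 0.37 to 0.49 on the scale of log2(value + 1), and *TDG* lay 0.14 higher. This scale understates the change of genes with low values. As ratios of the means, edited over wild-type, these genes were at 0.757, 0.696, 0.592, 0.648 and 1.11 in that order. *UHRF1*, which has no seed match, was the only one of the 7 that passed the threshold, with a level 1.99 times that of wild-type cells. Of the 9590 genes averaging 10 or more, 7.09% passed (2.89% higher and 4.2% lower in edited cells). Over all 16811 genes 4.73% passed (1.33% higher and 3.4% lower). At an adjusted p under 0.001, 0 of the 7 genes and 0.0104% of the 9590 genes passed. The groups did not overlap for any of the 7 genes, 3 being higher and 4 lower in both edited libraries, but this held for 61.6% of all genes (31.4% higher and 30.2% lower). With 2 libraries a group, the smallest p of a two-sided exact permutation test is 0.333, so the calls rest on the spread that limma shares across genes, and p-values measure only the spread between these libraries, which the study calls biological replicates.

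**Figure D2:**
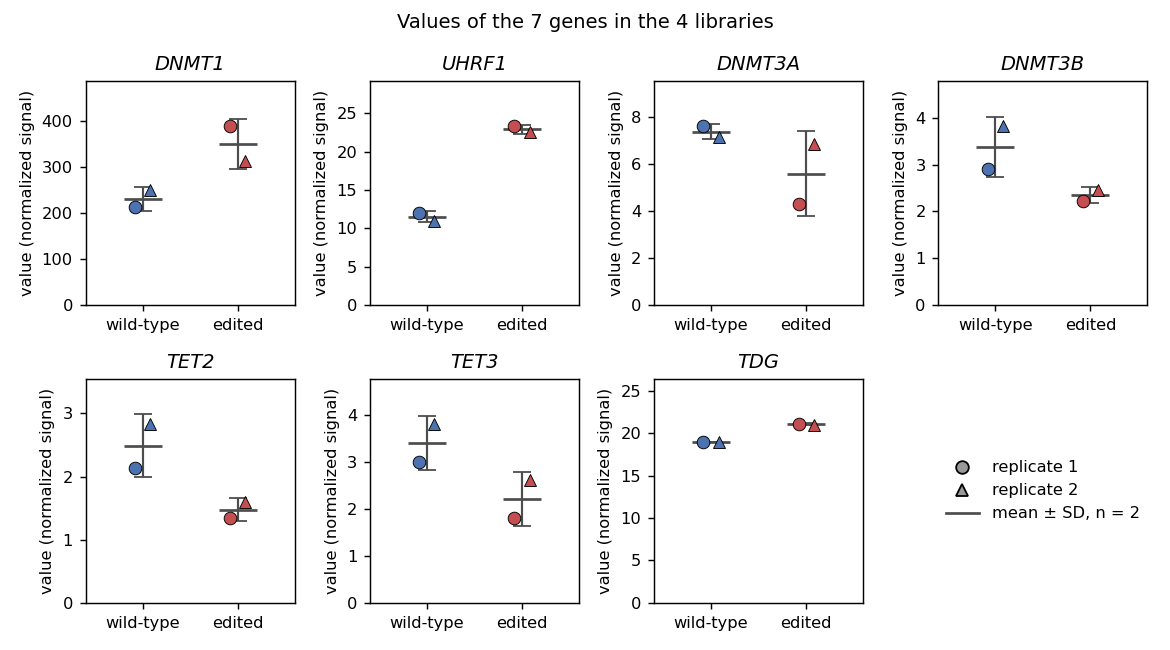
Deposited value (normalized signal, axes from 0) of the 7 genes in the 2 wild-type (blue) and 2 edited (red) libraries, with the mean and SD of each group (n = 2). *DNMT1*, *UHRF1* and *TDG* sit higher in both edited libraries, and *DNMT3A*, *DNMT3B*, *TET2* and *TET3* sit lower in both.

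*UHRF1*, the reader that recruits DNMT1 to hemimethylated DNA, had values of 23.3 and 22.5 in edited cells, where wild-type cells had 12 and 11. The replicates lay close together and the groups far apart. The means were 22.9 ± 0.584 (SD, n = 2) and 11.5 ± 0.717 (SD, n = 2), from about 383 to 876 estimated reads per library. The log2 difference was 0.93 (standard error 0.19, 95% confidence interval 0.47 to 1.4, adjusted p = 0.0469 from limma). The call was narrow. The adjusted p was 0.0551 when all 16811 genes were tested, 0.0580 with libraries scaled to equal totals and 0.0836 with the replicate number as a block. Leaving out edited replicate 1, edited replicate 2, wild-type replicate 1 or wild-type replicate 2 gave 0.143, 0.0680, 0.109 and 0.216, while the log2 difference stayed between 0.88 and 0.99. *UHRF1* spans 4903092 to 4962165 on the plus strand of chromosome 19 (GRCh37).

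*DNMT1*, the maintenance methyltransferase, was by far the most abundant of the 7 genes, with a mean value of 292 that exceeded 95.6% of all genes. Its values were 390 and 313 in edited cells, where wild-type cells had 213 and 250. Both edited libraries were above both wild-type libraries, although the edited replicates differed by more than the distance between the nearest libraries of the groups. The means were 351 ± 54.4 (SD, n = 2) and 232 ± 25.8 (SD, n = 2), a ratio of 1.52. The log2 difference of 0.59 (standard error 0.22, 95% confidence interval 0.04 to 1.15) had an unadjusted p of 0.0399 and did not pass after adjustment (adjusted p = 0.138 from limma). It was 0.28 with cyclic loess normalization and 0.44 without edited replicate 1. *DNMT1* lies on the minus strand of chromosome 19 (10244018 to 10341962) and shares 83 exonic bases with *S1PR2* on the same strand. The 569 tested genes of chromosome 19, which holds both maintenance genes, had a median log2 difference of 0.22, against 0.09 for all tested genes. Chromosome 20, which holds *DNMT3B*, had a median of 0.21.

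The de novo enzymes were far less abundant. *DNMT3A* had values of 4.32 and 6.87 in edited cells, where wild-type cells had 7.64 and 7.16. Edited replicate 2 came near the wild-type libraries and edited replicate 1 did not, so that the edited group spread widely at 5.60 ± 1.80 (SD, n = 2), against 7.40 ± 0.340 (SD, n = 2). The log2 difference was -0.37 (95% confidence interval -1.05 to 0.31, adjusted p = 0.40 from limma). Dropping edited replicate 2 gave -0.66 and dropping edited replicate 1 gave -0.09, so the value depended on which edited library was used. *DNMT3A* lies on the minus strand of chromosome 2 (25450724 to 25565459), and its processed pseudogene *DNMT3AP1*, also on chromosome 2, could share reads with it.

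*DNMT3B* had values of 2.23 and 2.46 in edited cells, where wild-type cells had 2.91 and 3.83. The edited libraries agreed and the wild-type libraries were further apart. Between 86 and 148 reads per library were estimated, a counting error of up to 10.8% of a value. The log2 difference was -0.38 (95% confidence interval -1.0 to 0.24, adjusted p = 0.356 from limma). *DNMT3A* and *DNMT3B*, like both measured TET genes, averaged below 10 and entered only the fit of all 16811 genes. The scale of log2(value + 1) understates the change of such genes, and the ratio of the means, edited over wild-type, was 0.757 for *DNMT3A* and 0.696 for *DNMT3B*. *DNMT3B* lies on the plus strand of chromosome 20 (31350191 to 31397165).

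Among the methylcytosine dioxygenases, *TET2* had values of 1.35 and 1.6 in edited cells, where wild-type cells had 2.14 and 2.84. It was the least abundant of the 7 genes, above 16.0% of all genes, with about 115 to 243 estimated reads per library. Both edited libraries were below both wild-type libraries, and the ratio of the means was 0.592. The log2 difference was -0.49 (95% confidence interval -1.14 to 0.16, adjusted p = 0.263 from limma). With a pseudocount of 0.1 in place of 1 it was -0.71, and with a pseudocount of 5 it was -0.21, without passing in either case. *TET2* lies on the plus strand of chromosome 4 (106067032 to 106200973).

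*TET3*, whose 3′ UTR held the most seed matches of the 8 genes, had values of 1.80 and 2.61 in edited cells, where wild-type cells had 3.0 and 3.81. The gap between edited replicate 2 and wild-type replicate 1 was smaller than the distance within either group. The ratio of the means was 0.648, and the log2 difference was -0.46 (95% confidence interval -1.14 to 0.21, adjusted p = 0.303 from limma). *TET3* lies on the plus strand of chromosome 2 (74212037 to 74335303), and 390 of its exonic bases are also annotated to a lncRNA on the same strand.

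*TDG* had values of 21.1 and 21.0 in edited cells, where wild-type cells had 19.0 and 19.0. The groups were apart by a ratio of 1.11, and replicates differed by less than the counting error of up to 4.47% of a value. The log2 difference was 0.14 (standard error 0.17, 95% confidence interval -0.28 to 0.57, adjusted p = 0.595 from limma). It was 0.03 with equal library totals. This scaling moved the median log2 difference of all tested genes from 0.09 to -0.03, so *TDG* stayed near that median on both scales. *TDG* lies on the plus strand of chromosome 12 (104359600 to 104382652), 168 of its exonic bases are also annotated to a lncRNA on the same strand, and its processed pseudogene *TDGP1* could share reads with it.

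**Figure D3:**
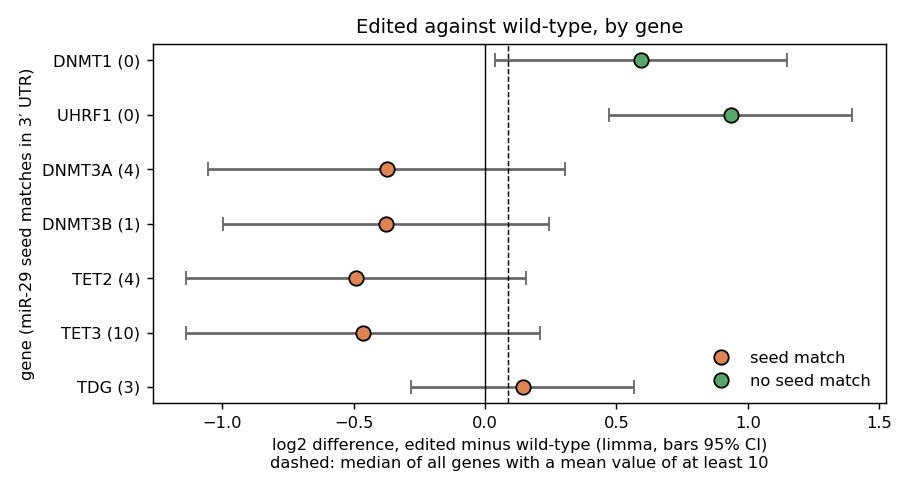
Log2 difference (edited minus wild-type, log2(value + 1), limma) with 95% confidence interval for each gene, the number of miR-29 seed matches in parentheses. The intervals of *UHRF1* and *DNMT1* lie above 0, those of the 5 genes with seed matches (orange) all include 0, and the dashed line is the median of 0.09 of all genes averaging 10 or more.

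The upper bounds of the intervals were 0.31 for *DNMT3A*, 0.24 for *DNMT3B*, 0.16 for *TET2*, 0.21 for *TET3* and 0.57 for *TDG* on the scale of log2(value + 1). For the genes averaging below 10 these bounds depend on the pseudocount and are not limits on a fold change. With each library left out in turn, none of the 5 changed direction. As the groups of each gene did not overlap, leaving out a library could not have reversed it. Since miR-29 was not measured in these libraries, these values are of the transcripts only.

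**Figure D4:**
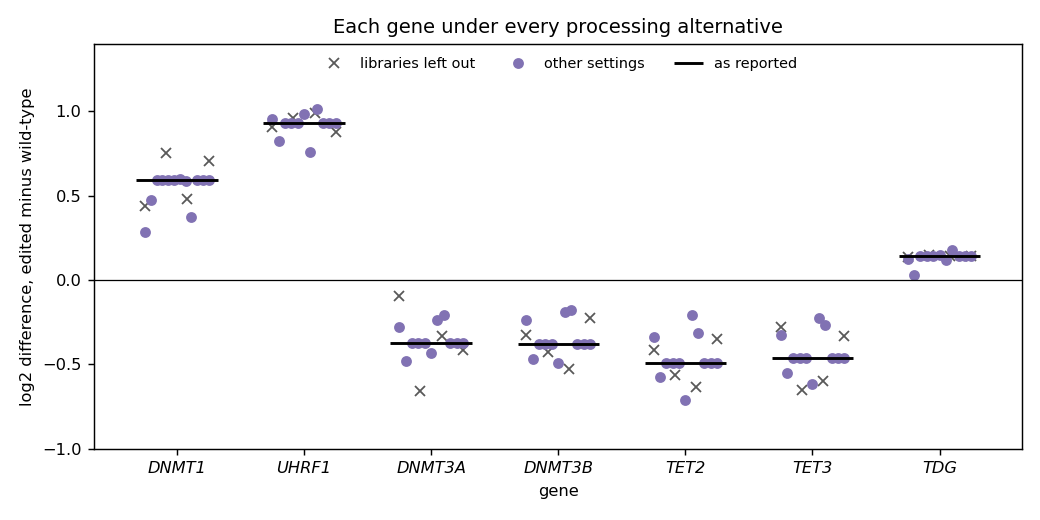
Log2 difference (edited minus wild-type) of the 7 genes as reported (black lines), with each library left out (crosses) and under every other processing setting (circles). *DNMT3A* ranged from -0.66 to -0.09, and no gene crossed 0 under any setting shown. As the groups of each gene did not overlap, only the scaling settings could have moved a gene across 0.

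By level, taking the values as scaled for length, which rests on their low values alone, *DNMT1* (mean value 292) was followed by *TDG* (20.0), *UHRF1* (17.2), *DNMT3A* (6.50), *DNMT3B* (2.86), *TET3* (2.81) and *TET2* (1.98). *DNMT3B* and *TET3* could not be ordered, as their values overlapped in both groups. *UHRF1* and *TDG* changed places. *UHRF1* was below *TDG* in both wild-type libraries and above it in both edited libraries.

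Ratios between genes of 1 library do not depend on a common scaling factor of that library, and the following were chosen after the values were seen and carry no test. *DNMT1* over *DNMT3A* was 90.2 and 45.6 in edited cells, where wild-type cells had 28.0 and 34.9. *DNMT1* over *DNMT3B* was 175 and 127 in edited cells, with 73.2 and 65.3 as the wild-type values. That the groups are apart in these ratios follows from the values of the genes themselves. *UHRF1* over *DNMT1* was 0.0599 and 0.0719, with 0.0564 and 0.0441 as the wild-type values, and the groups were apart. *DNMT3A* over *DNMT3B* was 1.94 and 2.79 in edited cells, with 2.62 and 1.87 as the wild-type values, and *TET2* over *TET3* was 0.749 and 0.613 against 0.715 and 0.745. For these last ratios the groups overlapped.

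The other genes of the pathway were read from lists by role. Among 11 partners of maintenance methylation with values, 0 passed the threshold (limma) and 1 had an unadjusted p under 0.05, against 32.3% of all tested genes. *HDAC2*, a histone deacetylase, was that gene, with a log2 difference of 0.67 (adjusted p = 0.0887 from limma). The chromatin remodeler *HELLS* (0.17), the clamp *PCNA* (0.21) and *UHRF2*, the paralog of *UHRF1* (-0.18), all had adjusted p above 0.5 (0.599, 0.630 and 0.625 from limma). *UHRF2* was 34.5 and 49.5 in edited and 50.3 and 43.7 in wild-type libraries, and its groups overlapped. Of 6 partners of de novo methylation, 0 passed and 0 had an unadjusted p under 0.05 (limma). *TRIM28*, the corepressor that brings silencing enzymes to zinc finger proteins, was the most abundant of them and had a log2 difference of 0.59 (adjusted p = 0.156 from limma).

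Of 8 genes listed as methyl-CpG readers, 1 passed, and it was higher, against 7.09% of all tested genes that passed. This was *MBD3*, a subunit of the NuRD corepressor complex, at 60.4 and 52.6 in edited cells, where wild-type cells had 31.3 and 23.5 (log2 difference 1.03 at an adjusted p of 0.0475 by limma). It passed in 1 of the 4 fits without a library (adjusted p 0.0346 to 0.235). *ZBTB38*, a zinc finger reader, was at 0.79 (adjusted p = 0.0538 from limma). *MBD1* and *MBD2* had log2 differences of 0.01 and -0.05. The median of the list was -0.02.

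Of 12 base excision repair and demethylation genes, 0 passed (limma) and 2 had an unadjusted p under 0.05, a smaller share than the 32.3% of all tested genes. They were *UNG*, the uracil glycosylase, with a log2 difference of 0.97 (adjusted p = 0.106 from limma), and *GADD45B*, a stress-induced gene linked to demethylation, with 0.90 (adjusted p = 0.135 from limma). *APEX1* and *XRCC1*, which act after TDG in repair, were at 0.34 and -0.30. Of 8 TET cofactor and partner genes, 0 passed (limma) and 2 had an unadjusted p under 0.05, not far from that share for so few genes. *IDH3A*, a subunit of the mitochondrial enzyme that makes the TET cosubstrate 2-oxoglutarate, was at 0.75 (adjusted p = 0.115 from limma). *D2HGDH*, which clears the TET inhibitor D-2-hydroxyglutarate, was at -0.53 (adjusted p = 0.134 from limma). *OGT*, the glycosyltransferase that binds TET proteins, was at -0.49, with an adjusted p of 0.20 (limma).

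Of 13 genes of the methyl donor cycle, 1 passed, against 7.09% of all tested genes. An unadjusted p under 0.05 was found for 4 of the 13 (limma), near the 32.3% of all tested genes. *MAT2A*, which makes S-adenosylmethionine, the methyl donor of all DNMT enzymes, was at 311 and 326 in edited cells, where wild-type cells had 155 and 104. The log2 difference of *MAT2A* was 1.32 (standard error 0.25) at an adjusted p of 0.0441 (limma), which passed in 1 of the 4 fits without a library (0.0403 to 0.202). *AHCY*, which clears the product inhibitor S-adenosylhomocysteine, was at 0.42 (adjusted p = 0.349 from limma). Of the 11 genes of this list averaging 10 or more, 10 were above 0, as were 56.7% of all tested genes. Their median was 0.48 against 0.09 over all tested genes, a difference that was not tested. *NNMT*, which consumes S-adenosylmethionine, spread from 614 to 1490 in edited and from 126 to 444 in wild-type libraries (log2 difference 2.01, adjusted p = 0.115 from limma).

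**Figure D5:**
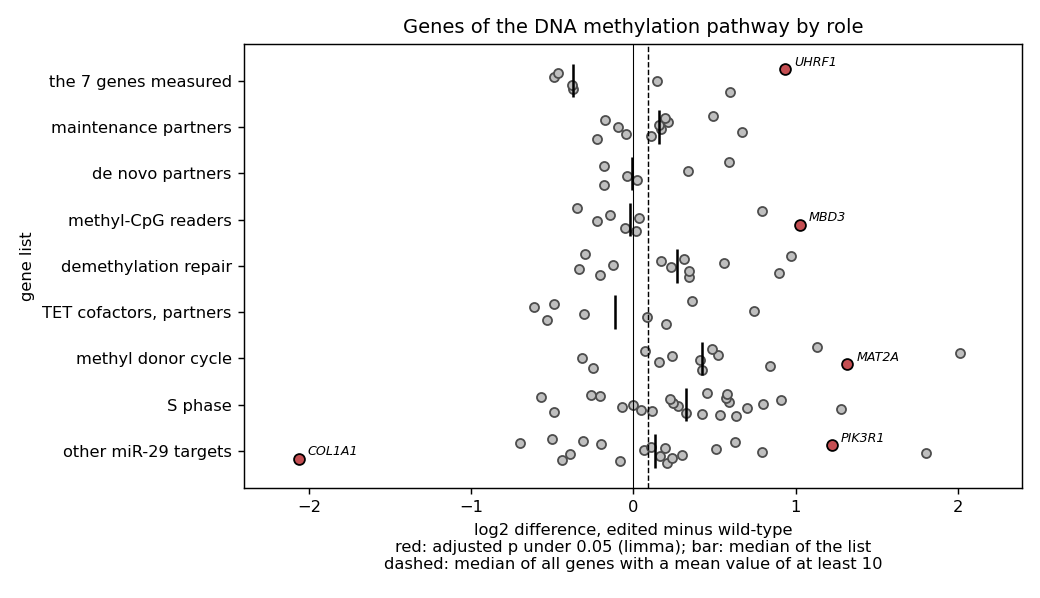
Log2 difference (edited minus wild-type) of each measured gene of the lists by role, with genes past an adjusted p of 0.05 (limma) in red and the median of each list as a black bar. *UHRF1*, *MBD3* of the methyl-CpG reader list and *MAT2A* of the methyl donor list are red, all to the right of 0. So is *PIK3R1* of the other miR-29 targets, with *COL1A1* on the left.

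*DNMT1* and *UHRF1* are transcribed mostly in cells that replicate DNA, and a list of S phase genes was set beside them. Of 23 genes 0 passed (limma) and 9 had an unadjusted p under 0.05, near the 32.3% of all tested genes. The median log2 difference of the 20 averaging 10 or more was 0.37 against 0.09 over all tested genes, and 15 of them were above 0, as were 56.7% of all tested genes. The summed value of the list was 2381 and 2034 in edited cells, where wild-type cells had 1872 and 1785. *MCM6* (0.91) and *MCM3* (0.80), subunits of the replicative helicase, were among those above 0, with adjusted p of 0.0765 and 0.0796 (limma), while *MCM2*, of the same complex, had nearly equal means of 80.8 in both groups. The primase subunit *PRIM1* (-0.57), the licensing factor *CDT1* (-0.49) and *RRM1* (-0.26), the large subunit of ribonucleotide reductase, were below 0, with adjusted p of 0.102, 0.348 and 0.382 (limma). Over the 128 genes of the lists with values, the one whose pattern over the 4 libraries lay nearest to that of *DNMT1* was *RRM2*, the S phase subunit of ribonucleotide reductase, by Euclidean distance of mean-centred log2 values (0.0667). For *UHRF1* it was the keratin gene *KRT8* (0.0753) and for *TDG* the chromatin assembly gene *CHAF1A* (0.118). With 4 libraries such nearness is a description. The part of replicating cells in the values of *DNMT1* and *UHRF1* was not tested in these libraries.

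Other known miR-29 targets did not move together. Of 20 with values, 1 rose and 1 fell at an adjusted p under 0.05 (limma), where 2.89% and 4.2% of all tested genes did. The median log2 difference was 0.14. *PIK3R1*, a regulatory subunit of PI3 kinase, rose by 1.22 (adjusted p = 0.0403) and *COL1A1*, a fibrillar collagen chain, fell by 2.06 (adjusted p = 0.0420). Each passed in 1 of the 4 fits without a library, with adjusted p of 0.0328 to 0.110 for *PIK3R1* and 0.0107 to 0.216 for *COL1A1*. Across the 8376 tested genes with an annotated 3′ UTR, the median log2 difference was 0.09 for 7093 genes with no match to the seed, -0.0025 for 1241 genes with 1 or 2 matches and 0.06 for 42 genes with 3 or more matches. Of these 42 genes, 1 was called higher and 4 (9.52%) were called lower. Among genes with no match 2.86% were called higher and 4.27% lower, and among those with 1 or 2 matches 2.10% and 4.43%, differences that were not tested.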

How the data were processed

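RNA-seq was carried out on 2 edited and 2 wild-type MCF12A libraries. The deposited table lists 16811 gene symbols and gives a normalized expression signal for each library. Each gene has a value above 1 in at least 2 libraries. The submitters' processing notes name HISAT2, Salmon and hg38, without versions, and the normalization is not given in the sources used here.

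The ratio of low values between libraries gave their relative depth, 0.930 to 1.12 times that of edited replicate 1. The value of 1 read was estimated from the 59 of 777 genes with 1 annotated transcript whose values were whole multiples of a step within 0.01 reads (quartiles 0.103 and 0.116 in edited replicate 1), which gave about 30100000 to 37700000 reads in 12232 genes matched to a length. As the other genes were not whole, no count test was used.

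Values were compared on log2(value + 1) with limma 3.58.1 in R 4.3.3 (lmFit, eBayes with trend, no replicate block), with p adjusted by Benjamini-Hochberg and called under 0.05, over the 9590 genes whose mean value reached 10. Genes under this mean were tested in a fit over all genes. The test was checked on simulated data. Seed matches and positions came from GENCODE version 44 on GRCh37, a build other than that in the submitters' notes. Python 3.11.15, numpy 2.4.6, pandas 2.3.3 and matplotlib 3.10.9 were used.

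All 8 genes were named, with list genes that passed the threshold (up to 4 a list), markers, and the most alike list gene. Other list genes named were chosen after their values were seen. The 8 genes and the lists were chosen with earlier results of these data known. A list of 25 germline genes was not analysed here, as none of its symbols matched. Alternatives changed the pseudocount, filter, scaling, variance estimate, block and threshold, or left out a library.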

Additional observations from a re-analysis of the deposited data

How the results depend on the processing

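Over 106 recomputed log2 differences of the 7 genes, 98 kept their direction and their side of the threshold, 0 changed direction, 0 newly passed and 8 lost the call, all 8 for *UHRF1*. Most of these settings could not change a direction. The filter, variance and block settings leave the log2 difference as it is. With groups that do not overlap, a pseudocount or a left-out library cannot reverse it, so only the scaling settings could. The log2 difference of *UHRF1* was 0.93 with no filter, with a mean value of at least 1 and with the replicate block, and 0.82 with equal library totals. With each library left out it was from 0.88 to 0.99. Its adjusted p ranged from 0.0385 to 0.216 over all alternatives (limma), and it passed in 7 of 15. The number of the 7 genes called was therefore 1, and 0 under those settings, with a mean value of at least 50, which leaves *DNMT1* alone, and at an adjusted p under 0.001. An unadjusted p under 0.05 was found for 2 of the 7 genes, and for 29.2% of all 16811 genes.

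Over all genes, 680 were called (277 higher and 403 lower). The number was 419 (228 and 191) with a mean value of at least 50, 1 at an adjusted p under 0.001, and 133 (26 and 107) with the replicate block. Without edited replicate 1, edited replicate 2, wild-type replicate 1 and wild-type replicate 2 it was 424, 1431, 47 and 4, a range of 4 to 1431. The smaller set of libraries is part of these numbers, and the lone sample of a group was assumed to vary like the other group. Same-numbered libraries correlated at -0.138 in their deviations from the group means, and edited replicate 1 with wild-type replicate 2 at 0.138. With 2 libraries a group these values are always equal and opposite, so they cannot show whether the libraries were handled in pairs. A crossed pairing and a robust variance estimate, both added after seeing the data, gave 1002 and 860 genes. The cause of these changes was not tested otherwise. About 86 estimated reads in the lowest library limit *DNMT3B* most.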
